A study of Mus musculus with 18 samples.

Results

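The effect of an oral splicing modulator, RECTAS, on the liver transcriptome was compared with its effect on the lung transcriptome of the same strain. The quantity of interest was the RECTAS minus vehicle difference in liver minus the same difference in lung, on the scale log2(TPM + 1), where TPM stands for length-normalised transcript abundance scaled to the same total in every library. It used the 12 liver and lung libraries among the 18 of the series, 3 libraries in each of 4 groups. The 4 groups were C57BL/6N mice aged 7 weeks given, by mouth, either RECTAS at 100 mg/kg body weight suspended in 0.5% carboxymethyl cellulose (CMC) or 0.5% CMC alone, with liver or lung taken. Mice of all groups were dosed at an interval of 4 h and tissues were taken 8 h after dosing began, so the controls also received CMC. Genes were kept where at least 3 liver and at least 3 lung libraries held at least 1 TPM, which left 11301 of 55401 genes. The labels do not say whether the replicates came from separate mice, or whether a liver and a lung came from the same mouse, and p-values thus cover only the variation among libraries, which may be technical.

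RECTAS, short for rectifier of aberrant splicing, is a small molecule known for promoting inclusion of exons that are wrongly skipped. It has been described as acting through CDC-like kinases (CLK), which phosphorylate SR proteins and so change which exons the spliceosome uses. After an oral dose, liver receives the compound from the portal blood and holds most of the enzymes that oxidise and conjugate foreign molecules, many of them controlled by the transcription factors NRF2, CAR and PXR. Lung is rich in endothelium and in secretory and alveolar epithelium. A gene that moves the same way in both organs and a gene that moves in only 1 of them are thus separate observations, and the difference of differences is the test of the latter.

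Tissue labels were checked against defining markers. Alb, the serum albumin gene, stood between 57361 and 75688 TPM in the 6 liver libraries, and Sftpc, the surfactant gene of alveolar type 2 cells, between 28612 and 35899 TPM in the 6 lung libraries. Sftpc was at most 0.4 TPM in liver. Alb was detected in lung at 9.07, 292 and 782 TPM in the vehicle libraries and 0.81, 28.5 and 334 TPM in the RECTAS libraries, so hepatocyte transcripts varied widely between lung libraries. TPM keeps no read depth, and each library listed between 19836 and 25227 genes above 0. The secretory protein gene Scgb1a1 alone took 13.3% to 14.9% of all TPM in vehicle lung and 11.5% to 12.2% in RECTAS lung. Over all genes kept, the median RECTAS minus vehicle difference was -0.04 in liver and 0.07 in lung (log2 scale), and after median ratio scaling it was -0.01 and 0.00. The deposited TPM therefore placed the typical gene 0.10 lower in liver than in lung on the difference of differences, and every count below is read against that shift. By sign alone, 40.1% of all genes were higher with RECTAS in liver and 69.6% in lung, 30.1% were higher in both, 20.3% lower in both, and 10% higher in liver and lower in lung. After median ratio scaling these shares were 48.1%, 50.9%, 26.7%, 27.7% and 21.4%.

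No gene passed the test of the liver minus lung difference in effect. With limma's moderated test over all 11301 genes and Benjamini-Hochberg adjustment at 0.05, the count of calls was 0 (0%) in either direction, and the smallest adjusted p was 0.0967, for S1pr1. At an unadjusted p under 0.05, 1446 genes differed, of which 182 (1.61% of the genes tested) had the higher effect in liver and 1264 (11.2%) the lower effect in liver. After median ratio scaling the same limma test called 0 genes and gave 519 and 564 at an unadjusted p under 0.05. Of these, 182 and 563 were shared with the unscaled counts. Down-weighting libraries by their own spread (array weights) changed the result to 525 calls, 53 with the higher and 472 with the lower effect in liver, at weights from 0.248 for liver vehicle replicate 1 to 3.43 for lung RECTAS replicate 1.

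The effect in liver passed the test for 65 genes and the effect in lung for 0 in the same fit. In liver 29 genes rose (0.257% of the genes tested) and 36 fell (0.319%). This balance turned with scaling, to 83 up and 54 down after median ratio scaling and 38 up and 27 down after quantile normalisation. In lung 953 genes (8.43%) had the higher and 140 (1.24%) the lower level at an unadjusted p under 0.05, and 350 (3.1%) and 296 (2.62%) after median ratio scaling. Fitted alone, the 6 liver libraries gave 5 calls and the 6 lung libraries 0 calls, and without liver RECTAS replicate 3 the joint fit gave 3 liver calls. Among the 65 genes called in liver, 43 had the same sign in lung and 22 the opposite sign. In lung, 21 of the 65 were apart in the same direction and 8 in the opposite direction, meaning that all RECTAS libraries lay on 1 side of all vehicle libraries. Over all 11301 genes, 2073 were apart upward and 300 downward in lung. The 29 that rose in liver had a median log2 difference of 0.70 in liver and 0.08 in lung. The 36 that fell had medians of -0.63 and -0.03. The average of both tissues' effects passed for 31 genes, 23 higher (0.204%) and 8 lower (0.0708%), and in 25 of the 31 the liver difference was the larger. Median ratio scaling gave 15 higher and 11 lower, quantile normalisation 12 and 8.

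**Figure D1:**
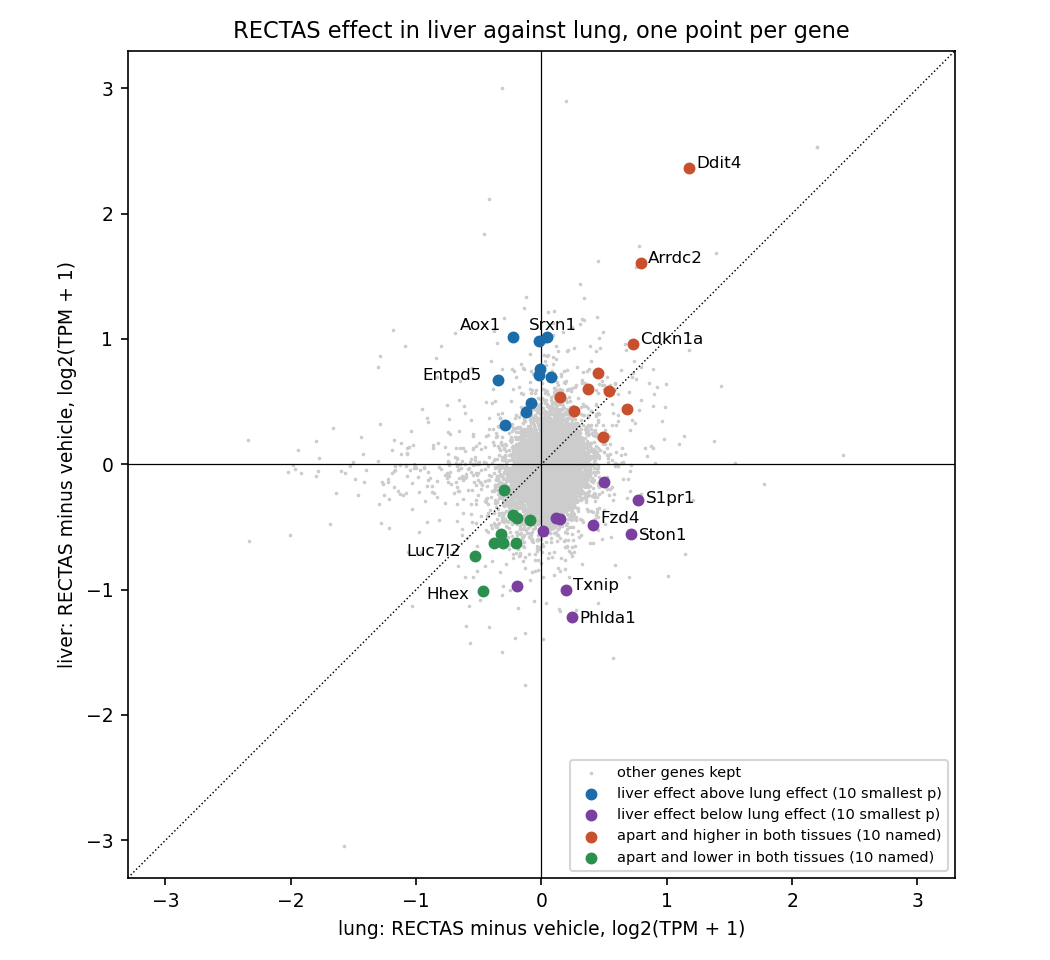
Log2 difference between RECTAS and vehicle in lung (horizontal axis) and in liver (vertical axis), 1 point per gene kept, with 2 genes outside the range drawn. Blue and purple points are the 10 genes of each sign with the smallest p for the liver minus lung difference. Orange and green points are, among genes apart in both tissues, the 10 named per direction with the smallest p of the average effect. Ddit4 and Arrdc2 lie far up on the right, Srxn1, Aox1 and Entpd5 on the upper part of the vertical axis, and S1pr1, Fzd4 and Ston1 in the lower right quadrant.

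Genes of antioxidant defence and conjugation led the side with the higher effect in liver. The 10 genes with the smallest p on this side were Srxn1, Entpd5, Ugdh, Gstm2, Ephx1, Zfp791, Gstm4, Htatip2, Slc35e3 and Aox1, all at an adjusted p of 0.144 or above for the difference between tissues. Sulfiredoxin, the enzyme that repairs overoxidised peroxiredoxins, is encoded by Srxn1 (chr2:152105516-152111376, GRCm38, protein coding). In liver Srxn1 stood at 13.8, 17.1 and 17.9 TPM in the vehicle libraries and 34.9, 31.4 and 32.4 TPM in the RECTAS libraries, and the groups did not overlap. In lung it stood at 17.5, 12.99 and 13.7 TPM in the vehicle libraries and 15.01, 14.4 and 13.8 TPM in the RECTAS libraries, and the groups overlapped. The log2 difference was 0.98 (SE 0.12, adjusted p = 0.00881, limma) in liver and -0.02 (SE 0.12) in lung, and the difference between tissues was 1.0 (SE 0.16, unadjusted p = 7.72e-05).

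Ugdh (chr5:65413221-65435949) encodes the enzyme that makes UDP-glucuronic acid, the donor for glucuronidation. In liver it stood at 41.6, 40.6 and 31.6 TPM in the vehicle libraries and 81.4, 63.8 and 88.1 TPM in the RECTAS libraries, with the groups apart. In lung the values were 28.9, 28.6 and 29.1 TPM with vehicle and 30.7, 29.3 and 29.3 TPM with RECTAS, a shift of 0.04 on the log2 scale against 1.01 in liver (adjusted p = 0.00946, limma). Ephx1, the microsomal epoxide hydrolase, rose in liver from 144, 165 and 157 TPM to 272, 234 and 253 TPM (log2 difference 0.70, adjusted p = 0.00881, limma). In lung Ephx1 stood at 207, 196 and 213 TPM in the vehicle libraries and 226, 226 and 197 TPM in the RECTAS libraries, with overlapping groups. Htatip2, which encodes an oxidoreductase-like protein, rose in liver by 0.71 (adjusted p = 0.0161, limma) with a lung difference of -0.02. The glutathione transferase gene Gstp1 rose in liver from 486, 425 and 395 TPM to 769.95, 629 and 719 TPM (log2 difference 0.70, adjusted p = 0.0135, limma), and its lung difference was 0.09. Reads of Gstp1 and other glutathione transferases can be shared with near-identical copies, so the division between them is uncertain.

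Promoters of 3 of these leading genes hold the letters TGACNNNGC, the core of the antioxidant response element to which NRF2 binds. Of the 3, Srxn1 and Ugdh are on the list of NRF2 targets and glutathione transferases described below, and Htatip2 is not. Gstm2, Gstm4 and Ephx1, also on that list, had no match. A second Htatip2 promoter (chr7:49758856-49759155) also held a match and is not printed. The windows are RefSeq promoters on GRCm38.p6, 250 bases before to 50 after a start site, read 5′ to 3′ along the gene, with matches on either strand in capitals.
Srxn1 promoter (chr2:152105274-152105573, plus strand): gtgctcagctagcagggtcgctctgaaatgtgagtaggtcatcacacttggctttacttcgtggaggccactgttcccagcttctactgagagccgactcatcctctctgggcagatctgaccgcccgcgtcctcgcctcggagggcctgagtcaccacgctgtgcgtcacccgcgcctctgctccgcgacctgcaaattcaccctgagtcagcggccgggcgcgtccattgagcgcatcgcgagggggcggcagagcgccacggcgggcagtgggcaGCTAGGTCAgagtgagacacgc
Ugdh promoter (chr5:65435793-65436092, minus strand): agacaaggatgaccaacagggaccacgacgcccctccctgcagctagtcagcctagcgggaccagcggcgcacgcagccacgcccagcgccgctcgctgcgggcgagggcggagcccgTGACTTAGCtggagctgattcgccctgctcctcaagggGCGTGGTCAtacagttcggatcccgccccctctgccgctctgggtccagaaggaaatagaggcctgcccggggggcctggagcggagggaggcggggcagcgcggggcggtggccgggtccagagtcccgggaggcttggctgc
Htatip2 promoter (chr7:49759262-49759561, plus strand): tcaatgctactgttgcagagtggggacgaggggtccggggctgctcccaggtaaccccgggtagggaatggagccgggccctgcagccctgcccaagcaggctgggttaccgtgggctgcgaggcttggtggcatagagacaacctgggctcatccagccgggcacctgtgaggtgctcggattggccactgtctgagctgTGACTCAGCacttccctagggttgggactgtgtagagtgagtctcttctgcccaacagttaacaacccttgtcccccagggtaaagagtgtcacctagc
On either strand this motif was in 12.4% of all 32851 promoter windows, and 14% of the 27025 genes had it in at least 1 window. Counted by gene, it was found for 3 of the 10 leading genes with the higher effect in liver, all of which matched the table, and for 0 of the 8 matched among the 10 leading genes with the lower effect in liver. Counted by window, 32.4% of the 34 windows of the 25 matched NRF2 and glutathione transferase genes described next held it. That list was put together from known NRF2 targets and glutathione transferases, so its share says nothing about RECTAS. None of these shares was tested against that of all windows or genes. A match describes letters in the window, and binding was not measured.

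The list of NRF2 targets and glutathione transferases had 30 kept members. Their median log2 difference was 0.32 in liver and -0.07 in lung, beside -0.04 and 0.07 over all genes, and both signs were the same under the 3 other scalings described below. The liver effect was above the lung effect in 29 of 30, and in 15 of 30 at an unadjusted p under 0.05, against 1.61% of all genes, while 0 members had the lower effect in liver at that p. In liver 5 of the 30 passed the test upward, against 0.257% of all genes, and in lung 0. Opposite signs (higher in liver, lower in lung) were seen in 16 members and higher levels in both tissues in 10. Some markers of club cells and hepatocytes were lower in lung at the same time. The 8 club cell markers summed to between 138700 and 157900 TPM in vehicle lung and between 120100 and 128400 TPM in RECTAS lung. Most of this sum was Scgb1a1, at 132818 to 149107 TPM and 114921 to 121803 TPM. Of the 2 kept club cell markers, 1 was higher with RECTAS in lung. The 14 kept hepatocyte markers had a lung median of -1.79. The part of club cells and hepatocytes in the lung values of the list was not tested. Nqo1, the quinone reductase often used as an NRF2 marker, stood at 7.8, 4.58 and 4.36 TPM in vehicle liver and 11.9, 8.54 and 9.57 TPM in RECTAS liver, which did not overlap, without passing the liver test (adjusted p = 0.32, limma). In lung, vehicle replicate 1 stood apart at 16.4 TPM from 4.69 and 5.43 TPM in the other vehicle libraries and 4.68, 5.12 and 4.75 TPM with RECTAS.

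Subunits of the proteasome, which degrades ubiquitinated proteins, were higher with RECTAS in liver for 32 of 32 members, with 0 passing the test. Their median difference was 0.19 in liver and 0.04 in lung, and the lung median turned to -0.06, -0.03 and -0.02 on quantile-normalised, median-ratio-scaled and rescaled values, in that order. The liver effect exceeded the lung effect at an unadjusted p under 0.05 in 9 of 32 on TPM as deposited, against 1.61% of all genes, and in 22 of 32 after median ratio scaling, against 4.59% of all genes. Psma5, a subunit of the core particle, stood at 48.8, 56.02 and 57.4 TPM in vehicle liver and 67.8, 65.9 and 67.9 TPM in RECTAS liver, with the groups apart, and its lung difference was -0.00. Psmd11, a lid subunit, was apart in both tissues, with log2 differences of 0.35 in liver and 0.16 in lung (average effect adjusted p = 0.0685, limma).

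CAR and PXR, the nuclear receptors that sense foreign compounds, were represented by 24 kept target genes. Their median was 0.15 in liver and -0.20 in lung, with 3 at an unadjusted p under 0.05 for a higher effect in liver, against 1.61% of all genes, and 0 for a lower one, against 11.2%. Hepatocyte markers were also lower with RECTAS in lung, by the median given above. All 15 summed to between 477 and 2960 TPM in vehicle lung and between 464 and 1486 TPM in RECTAS lung, which overlapped. Acute phase and secreted hepatocyte proteins (17 kept) had medians of -0.00 in liver and -0.87 in lung. Whether the lung values of these 2 lists followed hepatocyte transcripts from library to library was not tested. Abcc3, an exporter of conjugated compounds, had log2 differences of 0.33 in liver and -0.07 in lung (unadjusted p of the difference = 0.042). In liver 19 of the 24 targets were higher with RECTAS. Cyp3a11, a member that went the other way, fell in liver from 427, 348 and 348 TPM to 233, 294 and 176 TPM. Its liver groups were apart (log2 difference -0.70, adjusted p = 0.558, limma). Cyp2a5, another member, was apart upward in liver by 0.91 (adjusted p = 0.467, limma).

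**Figure D2:**
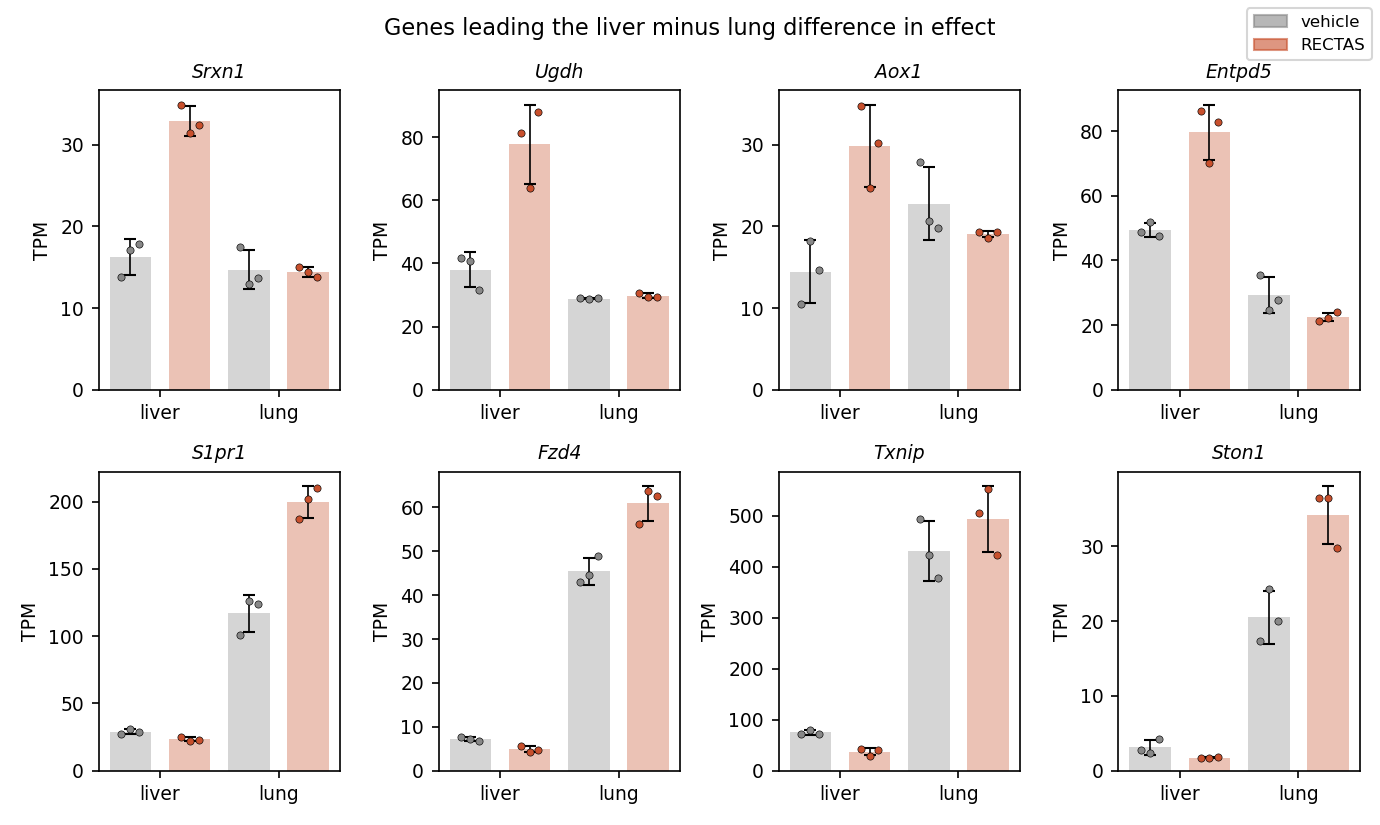
TPM in each library for 8 genes that lead the liver minus lung difference, with bars for group means, error bars for SD (n = 3) and points for libraries. The upper row shows Srxn1, Ugdh, Aox1 and Entpd5, with RECTAS libraries above vehicle libraries in liver. The lower row shows S1pr1, Fzd4, Txnip and Ston1, with RECTAS libraries below vehicle libraries in liver and, except for Txnip, above them in lung.

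Movement in opposite directions was counted without a model, as genes whose RECTAS libraries all lay above, or all below, the vehicle libraries in each tissue (called apart here). Higher in liver and lower in lung held for 13 genes (0.115% of those tested) and lower in liver and higher in lung for 216 (1.91%). This imbalance depended on scaling: median ratio scaling gave 50 and 79, quantile normalisation 55 and 70, and TPM recomputed after leaving out mitochondrial transcripts and the 20 most abundant genes (called rescaled values) 37 and 107. After median ratio scaling 12 of the 13 and 72 of the 216 were among those counted.

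**Figure D3:**
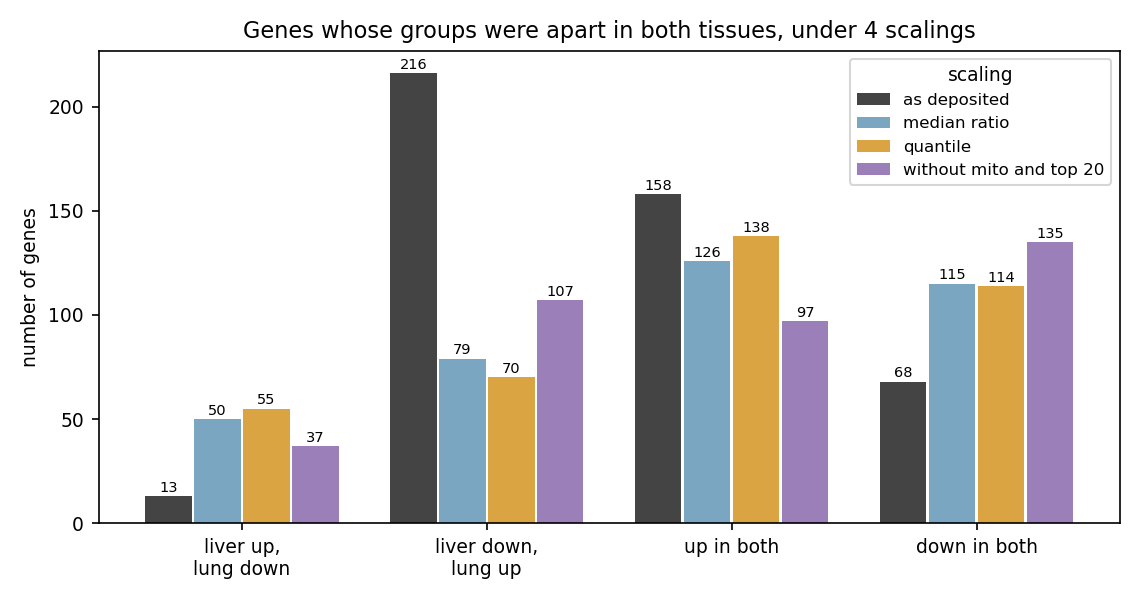
Number of genes whose RECTAS and vehicle libraries did not overlap in liver and in lung, by direction, for TPM as deposited and 3 other scalings. The count lower in liver and higher in lung fell from 216 to between 70 and 107 under the other scalings, and the count higher in liver and lower in lung went from 13 to between 37 and 55.

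Entpd5 (chr12:84373857-84409029), which encodes a nucleoside diphosphatase of the endoplasmic reticulum, led the genes higher in liver and lower in lung. In liver it stood at 48.7, 51.8 and 47.7 TPM in the vehicle libraries and 86.3, 70.1 and 82.7 TPM in the RECTAS libraries. In lung it stood at 35.5, 24.5 and 27.9 TPM in the vehicle libraries and 21.3, 22.3 and 23.95 TPM in the RECTAS libraries, so that the groups were apart in both tissues and in opposite directions. The log2 difference was 0.67 in liver (SE 0.12, adjusted p = 0.0398, limma) and -0.35 in lung (SE 0.12, adjusted p = 0.43, limma). Aox1, an aldehyde oxidase of drug metabolism, stood at 10.5, 18.2 and 14.6 TPM in vehicle liver and 34.7, 24.7 and 30.3 TPM in RECTAS liver, a rise with adjusted p = 0.0398 (limma). Its lung values were 27.9, 20.7 and 19.8 TPM with vehicle and 19.3, 18.6 and 19.3 TPM with RECTAS. Gstm4 and Gstt3, both glutathione transferases, and Reep6, which shapes the endoplasmic reticulum, had liver differences of 0.31, 0.31 and 0.16 and lung differences of -0.29, -0.11 and -0.29, and none of these passed the test in either tissue. Tsku, a secreted leucine-rich protein of liver, had the largest liver difference among the 8 named genes of this pattern, 3.01, but liver vehicle replicate 1 stood at 2.59 TPM against 32.8 and 24 TPM in the other vehicle libraries, and the liver test did not pass (adjusted p = 0.0637, limma). Its RECTAS liver libraries stood at 89.2, 116 and 148 TPM.

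The opposite pattern was led by S1pr1 (chr3:115710433-115715072), the sphingosine 1-phosphate receptor of endothelium and lymphocytes. In lung S1pr1 stood at 101, 126 and 124 TPM in the vehicle libraries and 187, 202 and 210.3 TPM in the RECTAS libraries. In liver it stood at 27.01, 30.8 and 28.6 TPM in the vehicle libraries and 25.4, 22.4 and 22.8 TPM in the RECTAS libraries, so the groups were apart in both tissues. The log2 difference was 0.77 in lung (SE 0.10, adjusted p = 0.0686, limma) and -0.28 in liver (SE 0.10), and the difference between tissues, -1.06, had an adjusted p of 0.0967 (limma). That p ranged from 0.0168 to 0.349 over all alternatives, and it was under 0.05 without liver RECTAS replicate 1, with array weights and without genes over 10 times higher in 1 tissue.

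Fzd4, a Wnt and norrin receptor of endothelium, stood at 7.72, 7.25 and 6.81 TPM in vehicle liver and 5.71, 4.34 and 4.69 TPM in RECTAS liver. In lung the values were 42.9, 44.6 and 48.9 TPM and 56.3, 63.7 and 62.7 TPM, again apart in both tissues and opposite. F2r, the thrombin receptor PAR1, had differences of -0.38 in liver and 0.44 in lung. Ston1, an endocytic adaptor, stood at 17.3, 24.2 and 19.97 TPM in vehicle lung and 36.5, 36.4 and 29.7 TPM in RECTAS lung, and its liver levels were 2.76, 2.36 and 4.19 and 1.72, 1.68 and 1.84 TPM. Il1rap, the accessory chain of the interleukin 1 receptor, fell in liver from 72.7, 67.3 and 68.6 TPM to 55.5, 52.3 and 46.9 TPM (log2 difference -0.43, adjusted p = 0.0271, limma), and in lung it differed by 0.12 with the groups apart upward. Tinagl1, a matrix protein gene, had the values 89.3, 91.9 and 93.95 TPM in vehicle lung and 127, 132 and 132 TPM in RECTAS lung, with liver libraries overlapping.

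Several of these genes are known from endothelium, and markers of that and some other cell types were higher in lung too. All 11 kept lung endothelium markers were higher with RECTAS in lung, with a median of 0.17 as deposited and 0.10 after median ratio scaling, against 0.07 and 0.00 over all genes. All 12 summed to between 4272 and 4808 TPM in vehicle lung and between 4738 and 5441 TPM in RECTAS lung, which overlapped. Some other lung lists had similar lung medians as deposited: 0.22 for alveolar type 2 cells (2 kept), 0.20 for smooth muscle (3 kept), 0.17 for alveolar type 1 cells (3 kept), 0.15 for fibroblasts (7 kept) and 0.14 for alveolar macrophages (4 kept). Lists of club cells (2 kept) and ciliated cells (1 kept) went the other way, at -0.08 and -0.31. On TPM as deposited, the summed markers of alveolar type 1 cells, type 2 cells and macrophages were apart upward in lung. So were 2073 of all 11301 genes taken singly, with 300 apart downward. The 5 kept markers of liver sinusoidal endothelium were all lower with RECTAS in liver (median -0.34), and the list of 8 summed to between 133 and 171 TPM in vehicle liver and between 108 and 137 TPM in RECTAS liver. None of these endothelial markers was at 0 in all libraries of a group. In bulk tissue fewer cells of a type and less RNA per cell cannot be told apart, and the part of cell content in these differences was not tested.

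Several genes fell in liver with little or no matching movement in lung. Txnip (chr3:96557957-96561883), the thioredoxin-interacting alpha-arrestin that restrains glucose uptake, fell in liver from 72.2, 79.7 and 72.5 TPM to 41.5, 29.3 and 41.2 TPM (log2 difference -1.0, adjusted p = 0.0161, limma). In lung it stood at 493, 422 and 377 TPM in the vehicle libraries and 505, 552 and 423 TPM in the RECTAS libraries, with overlapping groups. Phlda1 (chr10:111506286-111508645), a pleckstrin-homology-like protein induced by growth signals, fell from 42.99, 46.2 and 63.4 TPM to 18.1, 24.9 and 20.5 TPM in liver (log2 difference -1.22, adjusted p = 0.0129, limma), and its lung difference was 0.24. Id3, an inhibitor of helix-loop-helix transcription factors and a target of bone morphogenetic protein (BMP) signalling, fell from 40.5, 32.3 and 39.1 TPM to 17.98, 18.8 and 18.5 TPM in liver (log2 difference -0.97, adjusted p = 0.00397, limma). In lung Id3 stood at 186, 178 and 155 TPM in the vehicle libraries and 149.8, 164 and 138 TPM in the RECTAS libraries, overlapping, with a difference of -0.20. Ptgr2, a prostaglandin reductase, fell in liver by 0.53 on the log2 scale (adjusted p = 0.0155, limma) and differed by 0.02 in lung.

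Several signalling and timing lists held members on this side, described by their medians. The 8 kept BMP targets had a median of -0.43 in liver and 0.13 in lung, with 4 of 8 at an unadjusted p under 0.05 for a lower effect in liver, against 11.2% of all genes, and both signs were the same under the 3 other scalings. After median ratio scaling 2 of the 8 had the lower effect in liver at that p, against 4.99% of all genes. Among the BMP targets Id2, a relative of Id3, differed by -1.01 in liver and -0.25 in lung. Smad9, a BMP-receptor-activated transcription factor, differed by -0.61 in liver and 0.12 in lung. The 26 kept immediate early genes, which respond to stimuli within minutes, had medians of -0.15 and 0.23, with 6 at an unadjusted p under 0.05 on this side, against 11.2% of all genes, and 0 on the other. After median ratio scaling it was 5 of 26, against 4.99% of all genes. Of the immediate early genes Klf6 and Jund, both transcription factors, differed by -0.36 and -0.15 in liver and by 0.50 and 0.32 in lung. Rhob, a small GTPase of the same list, stood at 86.9, 112 and 131 TPM in vehicle lung and 217, 224 and 202 TPM in RECTAS lung. Its liver groups overlapped, with a liver difference of 0.20. Rhob was also among the 31 genes called in the average effect (0.59, adjusted p = 0.0457, limma). The 17 kept clock genes had medians of -0.22 and 0.09, and the 16 kept YAP and TGF-beta targets -0.07 and 0.18, with all 16 higher in lung on TPM as deposited and 12 after median ratio scaling.

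Alpha-arrestins, adaptors that direct membrane proteins to ubiquitination, did not move as a family. Of 5 kept members, Arrdc2 rose in liver as described next and Txnip fell there, while Arrdc3 differed by -1.55 in liver and 0.57 in lung (unadjusted p of the difference = 0.016) and Arrdc4 by -0.22 and -0.10. The hnRNP proteins, which bind nascent transcripts and influence splice site choice, had medians of -0.12 in liver and 0.10 in lung over 30 kept members, and 21 of 30 were lower in liver and higher in lung, against 39.5% of all genes. At an unadjusted p under 0.05, 11 of 30 had the lower effect in liver on TPM as deposited, against 11.2% of all genes, and 0 of 30 after median ratio scaling, against 4.99%. Hnrnpa1 and Hnrnpf, the 2 members apart in both tissues, differed by -0.25 and -0.14 in liver and by 0.10 and 0.13 in lung.

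Genes that moved the same way in both tissues were apart upward in 158 cases (1.4% of those tested) and apart downward in 68 (0.602%). Median ratio scaling gave 126 and 115, of which 81 and 47 were shared, quantile normalisation 138 and 114, and rescaled values 97 and 135, so that the balance of directions turned there. Across all genes the liver and lung differences had a Pearson r of 0.161 and a Spearman rho of 0.157, a description over genes that share the 12 libraries. Of the 31 genes called in the average effect, 25 were apart in both tissues, and a call could rest mostly on liver, as for Id3, Ephx1, Srxn1 and Ugdh above. With each of the 12 libraries left out in turn, 6 of the 31 were called every time (Ddit4, Arrdc2, Ccl25, Luc7l2, Id3 and the predicted gene Gm20634), and the other calls held in 1 to 11 of the 12 fits. The number of calls ranged from 7, without lung vehicle replicate 2 or liver RECTAS replicate 3, to 43, without liver vehicle replicate 1. It was under 21 also without lung vehicle replicate 1, lung RECTAS replicate 1, 2 or 3, liver vehicle replicate 2 or liver RECTAS replicate 2. In a fit with a replicate block of 6 pairs, each of 1 treatment and number, the average effect gave 0 calls.

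Ddit4 (chr10:59949669-59951834), a stress- and glucocorticoid-induced inhibitor of mTORC1 also known as REDD1, had the smallest p of the average effect. In liver it stood at 2.52, 4.43 and 3.67 TPM in the vehicle libraries and 22.2, 24.2 and 19.7 TPM in the RECTAS libraries. In lung it stood at 16.3, 21.96 and 30.9 TPM in the vehicle libraries and 52.1, 63.6 and 42.1 TPM in the RECTAS libraries, so all RECTAS libraries exceeded all vehicle libraries in both organs. The log2 difference was 2.36 in liver (SE 0.23, adjusted p = 0.00397, limma) and 1.18 in lung (adjusted p = 0.169, limma), and the average was 1.77 (SE 0.16, adjusted p = 0.00294, limma). The difference between tissues, 1.18, did not pass (adjusted p = 0.209, limma). Arrdc2 (chr8:70835129-70839720), the alpha-arrestin, followed the same order, at 8.04, 9.39 and 8.45 TPM and 21.9, 35.4 and 29.1 TPM in vehicle and RECTAS liver. In lung Arrdc2 stood at 15.7, 17.8 and 16.8 TPM and 31.96, 34.4 and 23.7 TPM, and the average effect was 1.20 (SE 0.12, adjusted p = 0.00346, limma).

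Tsc22d3, the glucocorticoid-induced leucine zipper gene, stood at 27.03, 54.8 and 54.9 TPM in vehicle liver and 124, 144 and 159 TPM in RECTAS liver. In lung it stood at 81.8, 176 and 242 TPM and 357, 398 and 449 TPM, with vehicle replicate 1 lowest in each organ, and the average effect was 1.54 (SE 0.25, adjusted p = 0.0381, limma). Cdkn1a, the p53- and glucocorticoid-responsive cell cycle inhibitor p21, rose on average by 0.85 (adjusted p = 0.0117, limma). Its levels were 1.7, 1.8 and 2.15 and 3.96, 4.88 and 5.02 TPM in vehicle and RECTAS liver and 34.2, 38.03 and 29.7 and 45.2, 70.3 and 57.3 TPM in vehicle and RECTAS lung. Sgk1, a kinase induced by corticosteroids, rose on average by 0.56 (adjusted p = 0.0349, limma), with a lung difference of 0.68 beside 0.44 in liver. Without liver RECTAS replicate 3 the Cdkn1a call was lost, and the Tsc22d3 and Sgk1 calls each held in 4 of the 12 fits with 1 library left out.

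The list of glucocorticoid-responsive genes, to which these 3 genes and Ddit4 belong, had 30 kept members and medians of 0.54 in liver and 0.45 in lung. Both were above 0.3 under each of the 3 other scalings. Higher levels in both tissues were seen in 21 of 30, 8 of 30 were apart upward in both tissues against 1.4% of all genes, and 4 of 30 passed in the average effect against 0.204% of all genes. Time of day and handling were not given in the labels. Per1, a clock gene that glucocorticoids also induce, differed by 0.91 in liver and 1.18 in lung without passing (average effect adjusted p = 0.184, limma).

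Other genes rose in both tissues outside that list. Ccl25 (chr8:4325210-4360020), a chemokine that recruits lymphocytes, stood at 4.81, 3.97 and 4.7 TPM in the vehicle libraries and 6.93, 7.7 and 7.00 TPM in the RECTAS libraries. In lung the values were 6.00, 5.57 and 6.02 TPM and 8.81, 8.54 and 9.67 TPM, and the effects of 0.58 in liver and 0.54 in lung gave an average of 0.56 (SE 0.06, adjusted p = 0.00526, limma). Herpud1, a component of degradation at the endoplasmic reticulum, rose on average by 0.49 and Sesn2, a stress-induced inhibitor of mTORC1, by 0.48 (adjusted p = 0.0366 and 0.0451, limma). Irf2bp2, a transcriptional corepressor, Pptc7, a mitochondrial phosphatase, and Lrrc8a, a subunit of the volume-regulated anion channel, rose on average by 0.59, 0.34 and 0.35. Heat shock chaperones of the cytosol had medians of 0.28 in liver and 0.21 in lung over 22 kept members, with 18 higher in both tissues and 0 past the test. Of these Hspa8, the constitutive HSP70, differed by 0.48 and 0.33 with the groups apart in both tissues.

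**Figure D4:**
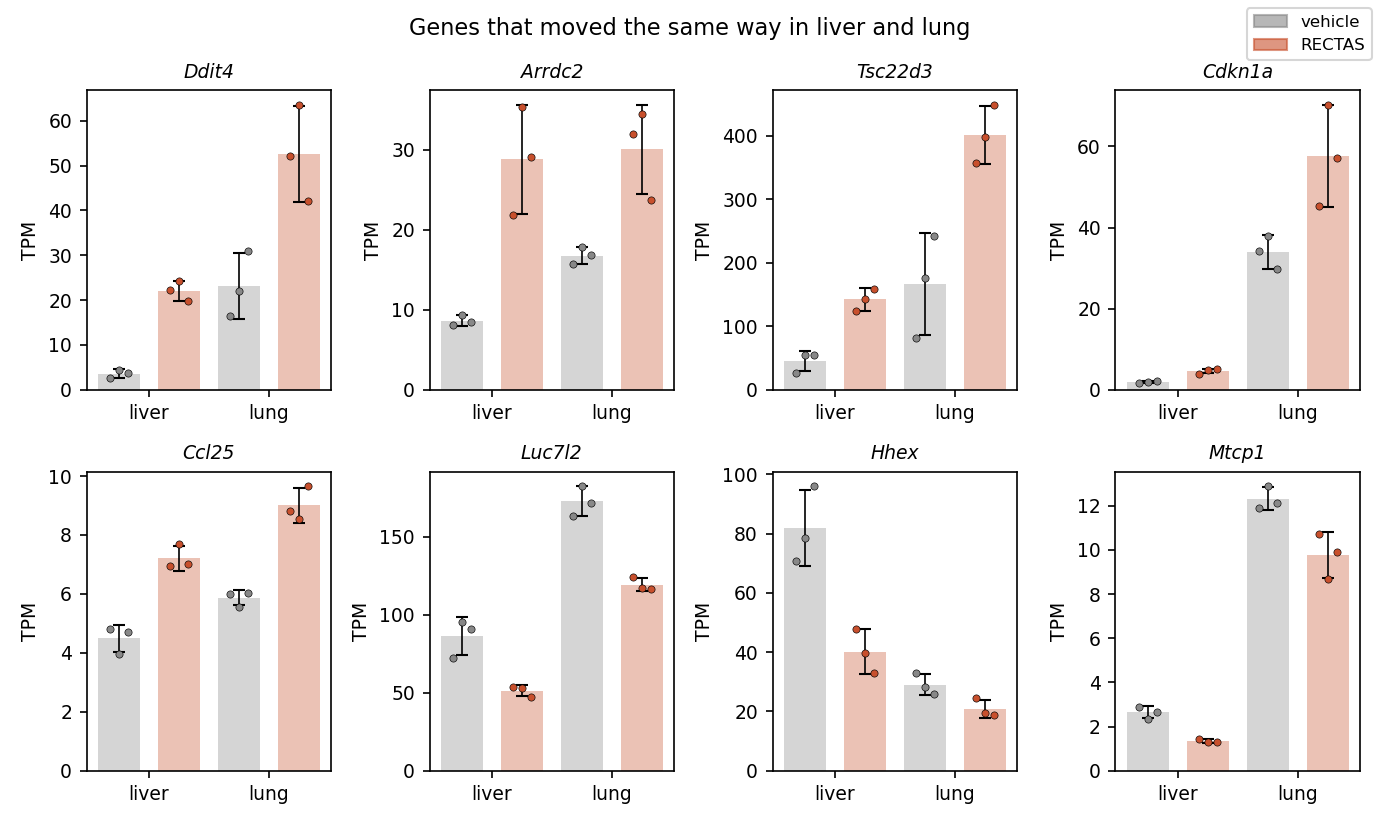
TPM in each library for 8 genes that moved the same way in liver and lung, with bars for group means, error bars for SD (n = 3) and points for libraries. RECTAS libraries lie above vehicle libraries in both organs for Ddit4, Arrdc2, Tsc22d3, Cdkn1a and Ccl25, and below them for Luc7l2, Hhex and Mtcp1.

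Among genes that fell, the smallest p of the average effect was that of Luc7l2 (chr6:38551334-38609470), which encodes a U1 snRNP-associated protein that influences 5′ splice site choice. In liver it stood at 72.4, 95.3 and 91.1 TPM in the vehicle libraries and 53.6, 52.9 and 47.4 TPM in the RECTAS libraries. In lung it stood at 164, 183 and 172 TPM in the vehicle libraries and 124, 117 and 117 TPM in the RECTAS libraries, and the groups were apart in both. The log2 difference was -0.73 in liver (SE 0.10, adjusted p = 0.0155, limma) and -0.53 in lung, and the average was -0.63 (SE 0.07, adjusted p = 0.0059, limma). The list of LUC7-like and U1 snRNP proteins, Luc7l2 included, had 20 kept members with medians of -0.03 in liver and 0.02 in lung, beside -0.04 and 0.07 over all genes. The 1 member of 20 called downward in the average effect, against 0.0708% of all genes, was Luc7l2 itself. Luc7l3, its relative, differed by -0.37 in liver and -0.02 in lung, and Rbm25, which interacts with that family, by -0.24 and -0.32 with the groups apart in both.

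Hhex (chr19:37434810-37440731), a homeobox factor of liver and endothelium, fell on average by 0.74 on the log2 scale (SE 0.11, adjusted p = 0.034, limma). Its levels were 70.9, 78.6 and 96.2 TPM and 47.9, 39.8 and 32.9 TPM in vehicle and RECTAS liver, and 32.8, 28.3 and 26.03 TPM and 24.4, 19.5 and 18.6 TPM in vehicle and RECTAS lung. Alkbh3, a DNA and RNA demethylase, Mtcp1, a proto-oncogene relative of TCL1, and Acvr2b, an activin receptor, fell on average by 0.44, 0.47 and 0.50 (adjusted p = 0.0311, 0.0224 and 0.0381, limma), and all 3 were apart in both tissues. Mtcp1 and Acvr2b stood under 4 TPM in every liver library, where log2(TPM + 1) understates a change.

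Interferon-stimulated genes were mostly lower in both tissues. Of 34 kept type I interferon genes, 26 were lower in both, with medians of -0.28 in liver and -0.16 in lung, and 3 were apart downward in both, against 0.602% of all genes. Of 19 kept interferon gamma genes, 17 were lower in both, with medians of -0.25 and -0.24. No member of either list passed in the average effect. In liver Usp18, the negative regulator that removes ISG15, fell from 17.6, 14.5 and 19.2 TPM to 9.47, 10.5 and 12.1 TPM (adjusted p = 0.0291, limma), and its lung levels were 30.7, 28.1 and 29.3 and 23.9, 25.6 and 26.7 TPM. Ifit2, an antiviral effector, and Ifih1, the RNA sensor MDA5, differed by -0.38 and -0.31 in liver and by 0.12 and 0.06 in lung (unadjusted p of the difference = 0.00849 and 0.0053). At an unadjusted p under 0.05, 4 of the 34 type I genes (11.8%) had the lower effect in liver, near the 11.2% of all genes. After median ratio scaling it was 2 of 34, against 4.99%.

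Members of the p53 target list split. Cdkn1a and Sesn2 rose in the average effect, while Fas, the death receptor, was 42.97, 49.98 and 46.96 TPM in vehicle lung and 57.8, 62.04 and 68.1 TPM in RECTAS lung and 17.2, 16.8 and 14.2 and 14.4, 12.97 and 12.3 TPM in liver. Its difference between tissues was -0.68 (SE 0.14, unadjusted p = 0.000452, adjusted p = 0.144, limma). The 22 kept members had medians of 0.06 in liver and 0.16 in lung, and 6 were apart upward in both tissues, against 1.4% of all genes.

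Transcripts of the pathway through which RECTAS has been described to act showed no called change. Clk1 stood at 70.9, 49.7 and 48.6 TPM in the vehicle libraries and 51.3, 43.8 and 52.4 TPM in the RECTAS libraries, and in lung at 284, 299 and 280.4 and 333, 279 and 297 TPM. The differences of Clk2, Clk3 and Clk4 lay between -0.16 and 0.04 in liver and between -0.03 and 0.13 in lung. Srsf6, the SR protein named with CLK1 in the action of RECTAS, differed by 0.05 in liver and -0.00 in lung. The sign of the difference between tissues changed with the processing for Clk2, Clk3 and Clk4. For Srsf6 it changed only when liver vehicle replicate 1 was left out. Cftr, a gene whose splicing RECTAS has been reported to alter, was not tested because liver held at most 0.04 TPM, and it stood at 2.52, 2.37 and 2.67 TPM in vehicle lung and 3.14, 2.81 and 3.90 TPM in RECTAS lung. Kinases of SR proteins (10 kept) had medians of -0.12 and 0.07, and SR proteins (12 kept) -0.02 and 0.03, with 0 members at an unadjusted p under 0.05 for the difference in either list. Gene-level TPM sums over isoforms, so exon use was not measured.

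**Figure D5:**
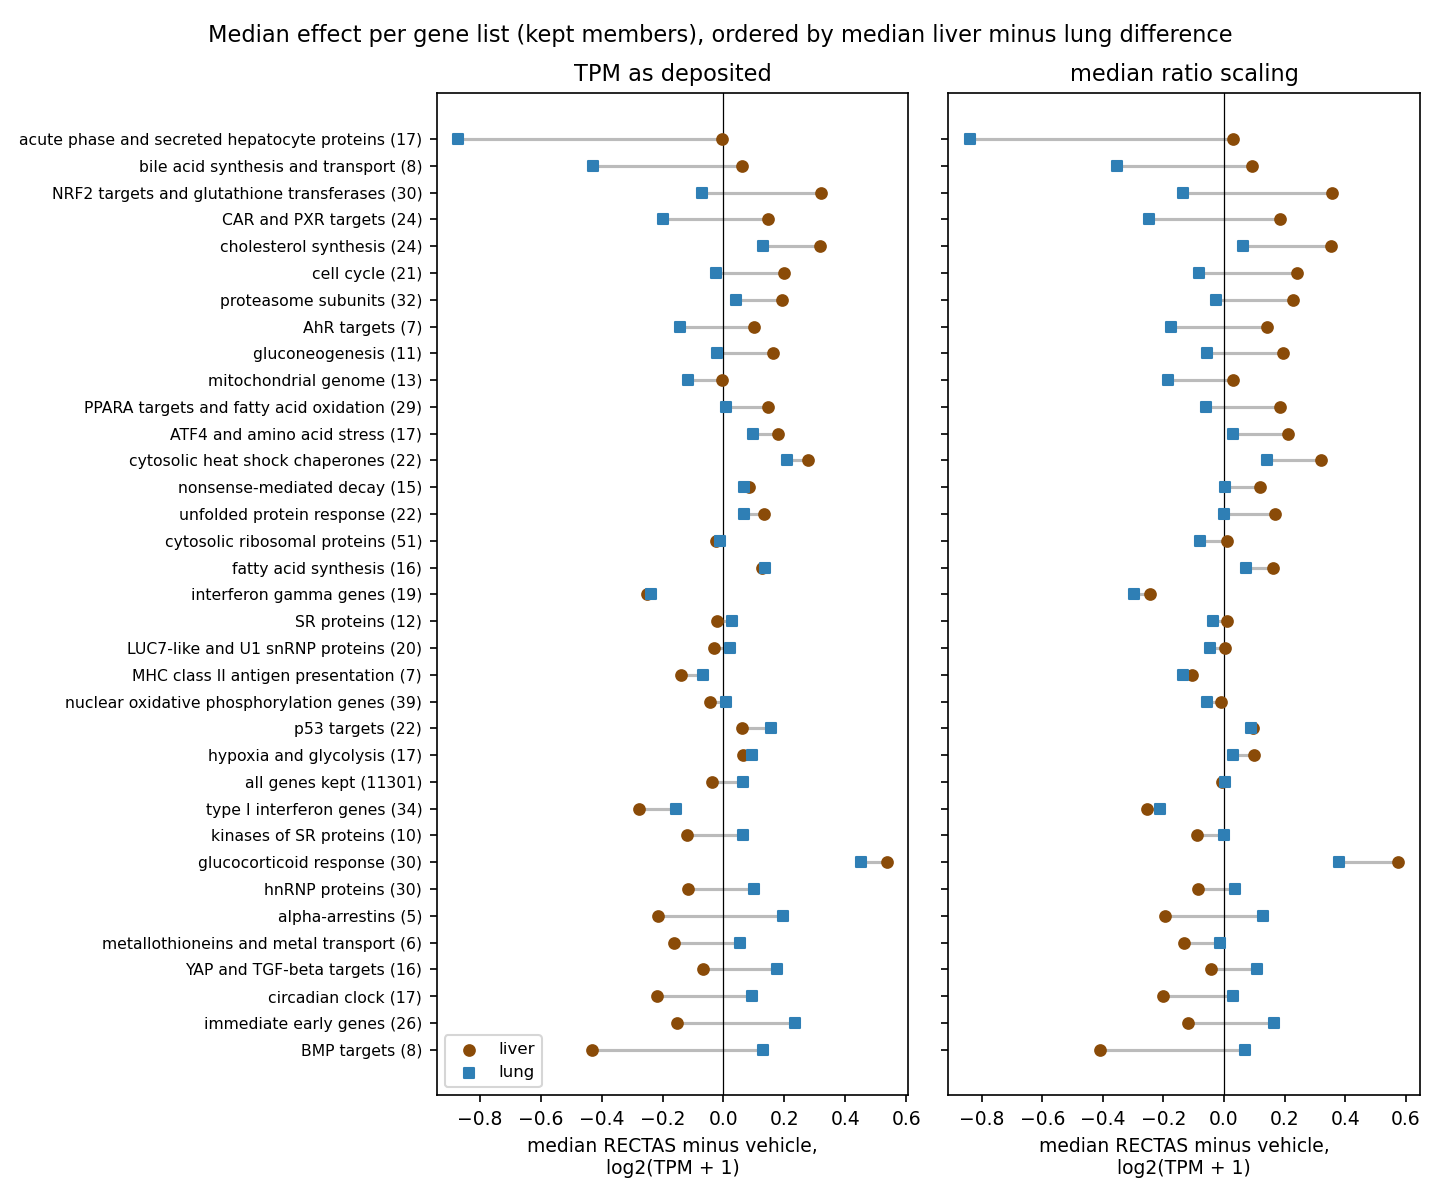
Median log2 difference between RECTAS and vehicle in liver (circles) and lung (squares) for each function list with at least 5 kept members (number in brackets), for TPM as deposited (left) and after median ratio scaling (right). NRF2 targets and glutathione transferases lie at 0.32 in liver and -0.07 in lung, glucocorticoid-responsive genes at 0.54 and 0.45, interferon gamma genes at -0.25 and -0.24, and BMP targets at -0.43 and 0.13.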

How the data were processed

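Per the labels' protocols, liver and lung were homogenised in TRIzol and polyadenylated RNA was sequenced from TruSeq stranded mRNA libraries. The values are TPM per gene and library as deposited by the authors. The submitters' processing notes name HISAT2 2.2.0, RSEM 1.3.0 and GRCm38, with no role for any of them. Depth is unknown. A few abundant genes rescale all other TPM, so other scalings were run.

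Groups were taken from the labels. Genes reaching 1 TPM in 3 or more libraries of each tissue were fitted as log2(TPM + 1) with limma 3.58.1 in R 4.3.3 (4 group means, moderated test with a trend, two-sided, Benjamini-Hochberg over all genes kept, threshold 0.05), after a check on simulated data. Tables and figures were made in Python 3.11.15. Fold changes on this scale understate those of low genes. Coordinates are from GENCODE M21.

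Members, gene lists and tests were chosen with earlier results of these data known, and no list is independent evidence of its direction. Named genes were the 10 per sign with the smallest p of the tissue difference, 8 per opposite pattern, 10 per shared direction, and up to 3 per list for the tissue difference and 3 for the average effect. The CLK kinases, Srsf6, Cftr and tissue markers were also named, as were other genes called in the average effect. Predicted, clone-named and short genes were passed over: 1 in the leading genes lower in liver, 1 in the opposite pattern lower in liver, 1 upward and 4 downward in the shared direction. Promoter windows were searched for other motifs too, which are not reported. Alternatives covered the pseudocount (0.1 and 5), the filter (none, 5 TPM), quantile, median ratio and rescaled values, all 18 libraries, array weights, robust variance, a replicate block, each library left out, leaving out genes under 300 nt or over 10 times higher in 1 tissue, and, added after seeing the data, each tissue alone.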

Additional observations from a re-analysis of the deposited data

Results flagged for a closer look

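Colon libraries of the same series took no part in the comparison of liver with lung. For 7 of the 31 genes called in the average effect of liver and lung, the 3 RECTAS colon libraries were also all on the same side of the 3 vehicle colon libraries, and for 0 on the opposite side. Over all genes kept, 4.02% were apart upward and 2.04% downward in colon. The colon log2 difference was 1.02 for Sgk1, 0.38 for Ccl25, 0.32 for Lcp1 (the actin bundler plastin 2) and 0.30 for H2bc4, a histone H2B gene. It was -0.56 for Luc7l2, -0.38 for Mtcp1 and -0.30 for Alkbh3. Luc7l2 stood at 108, 99.8 and 101 TPM in vehicle colon and 66.9, 81.1 and 62.1 TPM in RECTAS colon. Ddit4 and Arrdc2 were not apart in colon, at differences of 0.33 and -0.24, and the difference between colon and the other tissues was not tested.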

How the results depend on the processing

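No read depth could be had from TPM, and 3 libraries per group limit every test. What the replicate numbers mean is not given. Deviations of same-numbered liver and lung libraries correlated at -0.03 to 0.13, so the numbers were not taken to pair libraries, and pairing was not settled by this check. With a replicate block of 6 pairs the limma fit called 1 gene for the tissue difference and 0 for the average effect, and with the number as 3 levels 0 and 16. Liver and lung effects could not be estimated within the 6 pairs and were not run so.

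The tissue difference gave 0 calls, and 1 at a threshold of 0.1, 4 without the filter, 525 with array weights and 1 without genes over 10 times higher in 1 tissue. The average effect gave 31 calls, and 72 at a threshold of 0.1, 20 after quantile normalisation and 418 with array weights. The liver effect gave 65 calls, and 246 at a threshold of 0.1, 104 with a pseudocount of 0.1 TPM, 137 after median ratio scaling, 383 with array weights and 5 from liver alone. The lung effect gave 0 calls, and 1 at a threshold of 0.1, 16 with a pseudocount of 5 TPM, 62 without the filter, 1 at 5 TPM, 7 after quantile normalisation, 3 in the fit of 18 libraries, 1102 with array weights, 1 with robust variance and 1 without genes over 10 times higher in 1 tissue. Genes apart in opposite directions numbered 229, and 125 after quantile normalisation, 129 after median ratio scaling and 144 after rescaling. The cause was not tested.

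With 1 library left out, calls ranged from 0 to 4 for the tissue difference, 7 to 43 for the average effect, 3 to 87 for liver and 0 to 4 for lung, and counts from 261 to 497 in opposite and 277 to 466 in the same direction, where fewer libraries separate more often by construction. Without liver RECTAS replicate 2 the liver count was 23 and without lung vehicle replicate 2 it was 37.

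The tissue difference changed sign for Clk2 (0.0734 with quantile, 0.04999 with median ratio and 0.0232 with rescaled values, and -0.15 to 0.0404 with 1 library left out), Clk3 (0.00156 with quantile, 0.00434 with median ratio and 0.00293 with array weights) and Clk4 (0.021 with quantile). It also did so for Srsf6 (-0.0518 to 0.15 with 1 library left out). No other gene reported for the tissue difference or the average effect changed sign under the alternatives run.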

Other observations

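Metabolic lists that belong to no comparison above were also summarised. Cholesterol synthesis genes (24 kept) had medians of 0.32 in liver and 0.13 in lung, with 20 higher in both tissues and 0 called. Insig1, a sterol-regulated brake on that pathway, differed by 0.57 in liver with the groups apart and by -0.05 in lung (unadjusted p of the difference = 0.0399). Angptl4, an inhibitor of lipoprotein lipase, was apart upward in both tissues, by 1.58 in liver and 0.76 in lung, without passing in the average effect (adjusted p = 0.0706, limma). Cebpb, a transcription factor of the acute phase and of amino acid stress, was also apart upward in both, by 1.05 and 0.49 (adjusted p = 0.163, limma). Cell cycle genes (21 kept) had medians of 0.20 in liver and -0.02 in lung. Ribosomal protein genes (51 kept) had medians of -0.02 and -0.01.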
